A study of Mus musculus with 8 samples.

Results

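The endoplasmic reticulum (ER) folding and secretory stress genes are 40 mouse genes for ER chaperones, disulfide isomerases, the translocon, N-glycosylation, the unfolded protein response and ER-associated degradation. Their members were all probe sets, in the deposited table of 12488, whose only platform gene symbol was one of the 40. This gave 58 probe sets for 37 of the 40 genes, and no probe set carried the symbol of Sdf2l1, Sec61g or Syvn1 alone. The data were liver expression profiles of 8 female Ames dwarf mice (df/df) that were fed standard pellets freely and were 24 to 26 months old at death, with 1 Affymetrix U74Av2 array per sample. The df/df genotype disrupts pituitary development, which leaves these dwarfs without growth hormone, thyrotropin or prolactin. All 8 mice carried this defect and no normal littermate was analysed here, so the levels describe dwarf liver only and the question was how far, and in which livers, these genes differed from mouse to mouse.

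Hepatocytes secrete most plasma proteins, and each of these proteins enters the ER through the Sec61 channel, loses its signal peptide, may receive N-glycans and folds with the help of chaperones and disulfide isomerases. When unfolded proteins build up, the sensors ATF6, IRE1 and PERK start the unfolded protein response, in which ATF6 and spliced XBP1 raise chaperone genes and ATF4 raises amino acid and stress genes, among them Ddit3. Proteins that do not fold are drawn back to the cytosol and degraded.

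The median signal of the arrays was 168 ± 7.72 (SD, n = 8), in the units of the deposited intensity. Livers 4 and 8 stood apart in a list of 10 interferon and acute-phase genes that was chosen with earlier results of these data known. They held the highest values in 10 of 10, which describes these livers and is not a test. The summed signal of these genes was 105340 in liver 4 and 73284 in liver 8, against 4081 to 28713 in the others. The macrophage markers also moved with these livers, with a summed signal of 15606 in liver 4, 10804 in liver 8 and 3392 to 6393 in the others, and 7 of 8 were highest in liver 4. The 7 T and NK cell markers on the array summed to 955 in liver 4, 709 in liver 8 and 338 to 654 in the others. Of these 7, 3 were themselves highest in liver 4, and only 1 was bright enough for testing. The 5 stellate cell and fibroblast markers had sums of 5909.6 to 8439, highest in liver 4, and liver 1 came next at 8186. Of these 5 markers, 2 were themselves highest in liver 4. The 9 B and plasma cell markers had sums of 1863 to 2470.2, highest in liver 1, and the 5 endothelial markers 992 to 1912, highest in liver 5. Hepatocyte markers, which define the tissue, were bright in every liver (summed signal of 5 genes 84918 to 123400). In liver RNA, more cells of a type and more RNA per cell cannot be told apart. Spike-in controls averaged, on the log2 scale, 10.70 to 10.88 on arrays 1 to 4 and 10.18 to 10.46 on arrays 5 to 8. The labels name no batch.

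The promoters of several members carried the ER stress response element (ERSE), the site through which ATF6 and its partner NF-Y act on chaperone genes, which is CCAAT, then 9 bases of any kind, then CCACG. Promoter windows from 250 bases before to 50 after the start were taken from RefSeq (GRCm38.p6), which held 38 windows for 35 of the 40 genes, and both strands were searched. The ERSE occurred in 6 of the 38 windows, those of Hspa5, Hsp90b1, Calr, Canx, Pdia6 and Syvn1, against 0.119% of all 32851 windows. The related ERSE-II, ATTGG and CCACG with 1 base between them, was found in 1 member window (Herpud1) and in 0.0365% of all windows. The element TGACGTGG, bound by ATF6 and XBP1, was found in 1 (Vcp) and in 0.676% of all. The ATF4-type element TTGCATCA was found in 1, again Herpud1, and in 0.895% of all. The 4 windows with an ERSE whose genes had a tested signal, and that of Herpud1, are shown 5′ to 3′ on the gene's strand with the matches in capitals, so that each can be set beside the signals of its gene. They lie at chr2:34771840-34772139 (plus strand), chr10:86705395-86705694 (minus), chr11:50325624-50325923 (minus), chr12:17266339-17266638 (plus) and chr8:94386179-94386478 (plus).
Hspa5: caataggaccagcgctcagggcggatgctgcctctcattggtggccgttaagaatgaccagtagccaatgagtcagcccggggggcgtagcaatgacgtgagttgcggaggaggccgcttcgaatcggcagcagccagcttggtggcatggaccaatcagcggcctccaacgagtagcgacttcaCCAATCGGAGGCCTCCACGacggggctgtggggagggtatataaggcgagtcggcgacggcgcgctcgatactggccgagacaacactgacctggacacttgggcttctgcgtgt
Hsp90b1: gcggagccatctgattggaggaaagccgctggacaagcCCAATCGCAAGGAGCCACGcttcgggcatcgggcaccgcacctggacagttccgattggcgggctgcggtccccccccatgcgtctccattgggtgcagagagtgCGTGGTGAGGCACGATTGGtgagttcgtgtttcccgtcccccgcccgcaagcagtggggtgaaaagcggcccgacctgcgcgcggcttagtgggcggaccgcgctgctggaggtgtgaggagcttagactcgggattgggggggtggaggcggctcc
Canx: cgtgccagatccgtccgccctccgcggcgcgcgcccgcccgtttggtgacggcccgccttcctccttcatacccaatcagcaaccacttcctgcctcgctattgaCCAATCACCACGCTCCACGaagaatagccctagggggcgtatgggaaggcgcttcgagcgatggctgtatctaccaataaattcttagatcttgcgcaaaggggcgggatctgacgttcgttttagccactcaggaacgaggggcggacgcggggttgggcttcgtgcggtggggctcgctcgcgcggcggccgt
Pdia6: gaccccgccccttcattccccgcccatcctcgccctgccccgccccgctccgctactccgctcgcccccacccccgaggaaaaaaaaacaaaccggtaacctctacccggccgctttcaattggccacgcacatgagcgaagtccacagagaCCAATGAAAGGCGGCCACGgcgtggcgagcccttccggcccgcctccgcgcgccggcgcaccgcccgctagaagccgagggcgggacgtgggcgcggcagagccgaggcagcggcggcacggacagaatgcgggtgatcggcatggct
Herpud1: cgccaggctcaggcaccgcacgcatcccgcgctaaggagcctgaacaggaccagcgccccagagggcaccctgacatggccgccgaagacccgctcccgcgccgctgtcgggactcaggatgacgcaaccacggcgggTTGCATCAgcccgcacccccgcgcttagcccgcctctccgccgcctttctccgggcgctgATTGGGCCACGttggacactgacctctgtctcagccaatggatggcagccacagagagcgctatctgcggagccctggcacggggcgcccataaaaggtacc
Hsp90b1 had an ERSE on each strand. Herpud1 held the ATF4-type element upstream of its ERSE-II, and no capitals overlap another match. These are matches of letters and not measured binding.

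Liver-to-liver variation of the ER genes was close to that of all genes. A probe set was tested if its average log2 signal exceeded the middle value of all non-control probe sets, a signal of 162, and 44 member probe sets for 32 genes did. The 14 others were the single probe sets of Hyou1, Calr, Ssr4, Uggt1 and Ddit3, 1 each of P4hb, Ssr1 and Srp14, and 3 each of Dad1 and Vcp. Each variance over the 8 livers was set against the typical variance at that signal, and 5 of 44 member probe sets (11.4%) had an adjusted p under 0.05, against 702 of 6211, or 11.3%, of all tested probe sets. These 5 belonged to Dnajb9, Pdia3, Ero1a, Ssr1 and Ssr3. Those of Ero1a and Ssr3 have names that mark probes not unique to 1 sequence. Without such probe sets 3 members passed, and 528 of all tested probe sets. In a further test by limma, which also allows for genes that differ in variance, 0 of 44 members and 0 of 6211 probe sets (0.0%) passed. On simulated data where the other SDs were unequal, limma recovered 0 of 200 probe sets with raised SDs. Its 0 here therefore cannot show that no member varied more than most. Without adjustment, limma gave 3 members and 425 of all probe sets a p under 0.05. The median range, highest over lowest signal, was 1.64-fold for members and 1.63-fold for all tested probe sets. Of the 44, 36 ranged less than 2-fold (81.8%, against 76.6% of all).

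**Figure D1:**
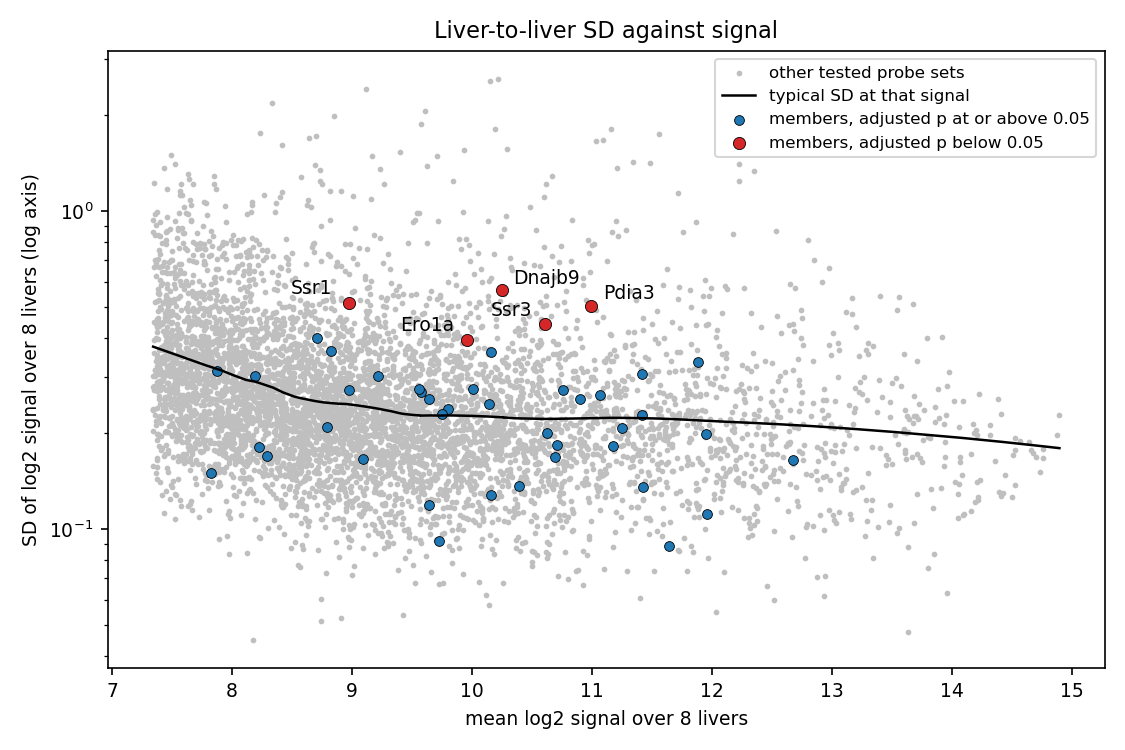
SD of the log2 signal over the 8 livers (log axis) against the mean log2 signal, for 6211 tested probe sets (grey), 39 members that did not pass the typical-variance test (blue) and 5 that did (red), with the typical SD as a line. The members spread around the line, 24 of them above it and 20 below it.

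Of the 6 tested probe sets of chaperones, 1 passed the test, that of Dnajb9. Hspa5 (BiP), the HSP70-type chaperone of the ER lumen, had signals of 4372, 3936, 3629.6, 5339.7, 3606, 3569.7, 3693 and 3763 in livers 1 to 8, a mean of 3989 ± 605 (SD, n = 8). Liver 4 was above the other 7, liver 1 came next at 4372, and the remaining 6 lay between 3569.7 and 3936. The SD of Hspa5 was 0.91 times the typical one, and it did not pass the test. Hsp90b1 (GRP94), the HSP90-type chaperone of the lumen, ranged least in this role, with 6398, 7634, 6704, 6913, 7333, 6458, 5779 and 5423 in livers 1 to 8. Liver 4 was within the range of the others, and liver 2 was the highest.
Dnajb9 (ERdj4), a co-chaperone that hands substrates to BiP, had 2 probe sets. One passed the test, with 1442, 1391, 922, 1365, 589, 1749, 1940.2 and 964 in livers 1 to 8, a 3.29-fold range and a mean of 1295 ± 448 (SD, n = 8). Its adjusted p was 5.9e-06. Livers 6 and 7 were high and livers 3, 5 and 8 low, and liver 4 lay in the middle. The other probe set ranged 1.49-fold, between 365 in liver 2 and 542 in liver 1, and did not pass. Canx (calnexin), the membrane lectin that holds glycoproteins during folding, had 549 in liver 4 and 922 in liver 1 on one probe set and 158 in liver 5 and 329.7 in liver 6 on the other, with neither past the test. The Calr probe set, for the soluble counterpart of calnexin, read 2.80 to 32.0 and was above the floor of 11.2, the 10th percentile of all values, in 4 of 8 livers. The probe set of Hyou1, a large chaperone related to HSP70, was under the floor in all 8, so these 2 gave no level.

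Of the 10 tested probe sets of isomerases, 2 passed the test, those of Pdia3 and Ero1a. Pdia3 (ERp57), the disulfide isomerase that works with calnexin, had 2310.2, 2467, 1690.4, 3489.8, 1049, 1852, 1892 and 2381 in livers 1 to 8, a mean of 2141 ± 712 (SD, n = 8). It was the widest member, at 3.33-fold, with an adjusted p of 0.00015. Liver 4 was highest and liver 5 lowest. Without liver 5 the lowest signal was 1690.4, and the call was lost. Ero1a, the oxidase that recharges disulfide isomerases, had 1099, 624, 941, 1009, 1376, 815, 897 and 1438 in livers 1 to 8 on the probe set that passed (adjusted p = 0.035). Livers 5 and 8 were high and liver 2 was low. This call was lost under 8 of 18 other settings, among them median scaling and the removal of livers 4 and 8 together. The second Ero1a probe set ranged 1.48-fold and was also lowest in liver 2. Pdia6, a disulfide isomerase that also binds BiP, was measured by 3 probe sets with ranges of 2.22-fold, 1.93-fold and 1.61-fold. On the first, the livers lay between 313 in liver 7 and 695 in liver 4, with liver 1 second at 514 (adjusted p = 0.101).
The other isomerases did not pass. Pdia4 (ERp72) had 853 in liver 2 and 1416 in liver 8. P4hb, the classical protein disulfide isomerase, had 2173 in liver 3 and 4198 in liver 1 on the probe set that was tested, and on the other, dimmer one the signals were 122 in liver 4 and 177 in liver 5. Ppib, the cyclophilin B that isomerises prolines in the lumen, had 2055 in liver 6 and 3193 in liver 4. Fkbp2, a proline isomerase of another family, ranged least, with 2213, 2084, 2392, 1940.4, 2803, 2114, 2429.9 and 2669 in livers 1 to 8, and was lowest in the liver where Ppib was highest.

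**Figure D2:**
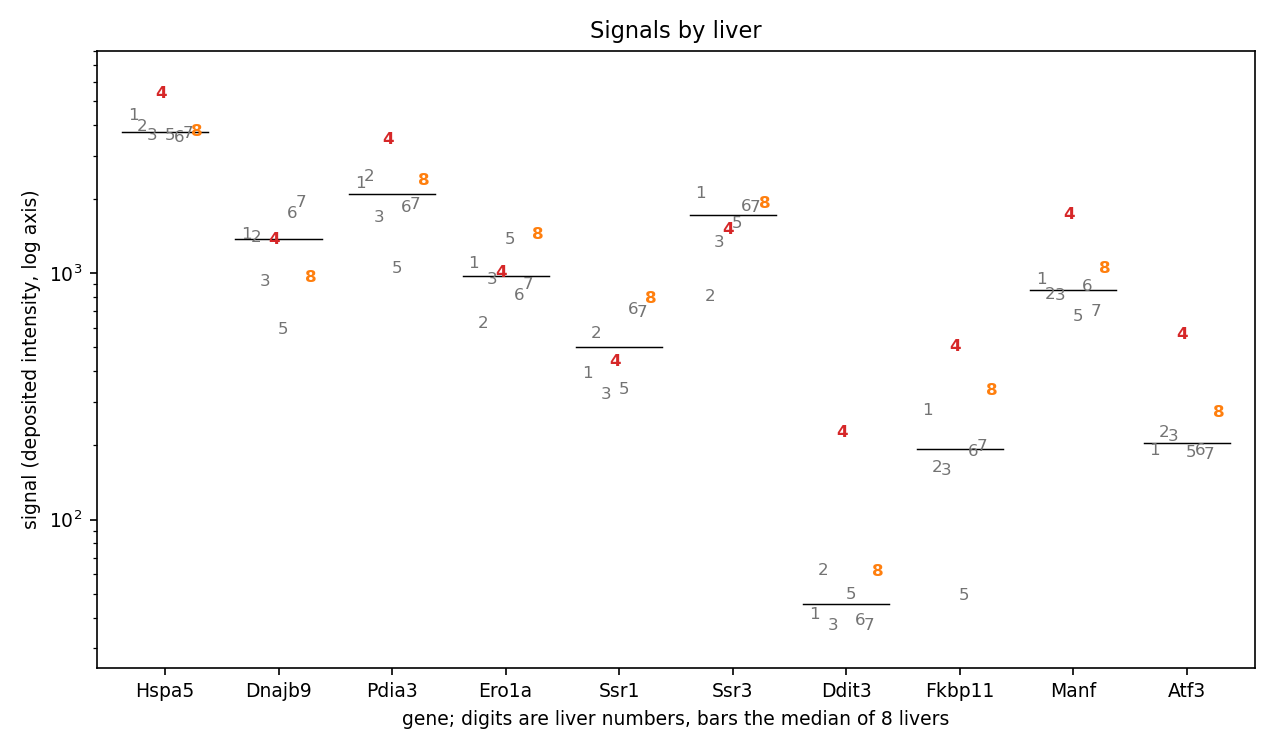
Deposited signal (log axis) of each liver, shown as its number, for Hspa5, the 5 member probe sets past the typical-variance test, Ddit3 (not tested) and Fkbp11, Manf and Atf3 of the wider pathway, with bars at the medians. The wider-pathway genes are the 3 of 8 passing probe sets that were highest in liver 4. The rest are not shown, and of these Ppp1r15b and Sec62 were lowest in liver 4. Liver 4 (red) is the highest for Hspa5, Pdia3, Ddit3, Fkbp11, Manf and Atf3 and within the range of the others for Dnajb9, Ero1a, Ssr1 and Ssr3, and liver 8 is in orange.

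Of the 12 tested probe sets of targeting and translocation genes, 2 passed the test, both of translocon-associated subunits. Ssr1 (TRAP alpha), a subunit of the complex that assists the translocon, had 389.9, 568, 321, 436, 337, 714, 694 and 792 in livers 1 to 8, a 2.47-fold range and a mean of 532 ± 185 (SD, n = 8). Its adjusted p was 0.00118. Livers 6, 7 and 8 were the highest and livers 3 and 5 the lowest. A second, dimmer Ssr1 probe set, untested, read 34.3 in liver 7 and 153 in liver 4. Ssr3 (TRAP gamma) passed on 1 of 3 probe sets, with 2105, 805, 1329, 1503, 1596, 1869, 1843 and 1915 in livers 1 to 8, a 2.61-fold range with an adjusted p of 0.00329. Liver 2 set this range, and without it the call was lost. A sister probe set was again lowest in liver 2, with 1597 in liver 2 and 2633 in liver 5. The remaining Ssr3 probe set read 3954, 4288, 4186, 4327, 3620.5, 3809.9, 4177 and 3544 in livers 1 to 8 and ranged least in this role, at 1.22-fold. Ssr2 (TRAP beta) read 422 in liver 3 and 608 in liver 6. The Ssr4 probe set was under the floor in all 8 livers.
Sec61a1, the channel itself, read 2486 in liver 3 and 3249 in liver 5 on one probe set and 1331 in liver 5 and 2089.7 in liver 4 on the other. Its small partner Sec61b read 1211 in liver 2 and 1576 in liver 4. The signal peptidase subunits Spcs1 and Spcs2 read 251 in liver 4 and 377 in liver 2, and 601 in liver 5 and 1024 in liver 4. The signal recognition particle proteins Srp9 and Srp14, which pair to pause translation, read 984 in liver 4 and 1320.1 in liver 2, and 1251 in liver 1 and 1814 in liver 3. For Srp14 the other 7 livers lay between 1605 and 1814. None of these passed the test.

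The oligosaccharyltransferase genes, which add N-glycans to entering proteins, did not pass the test, and all tested probe sets except that of Dad1 were highest in liver 4. Rpn1 (ribophorin I) read 363 in liver 5, a median of 419 and 793 in liver 4 on one probe set. On the other it read 701 in liver 7, a median of 886 and 1260.5 in liver 4. On both, liver 4 was well above the rest, whose highest values were 514 and 909. Rpn2 (ribophorin II) read 562 in liver 5 and 1058 in liver 4 on one probe set. On the other, which ranged least in this role, it read 1554, 1679, 1929, 1978, 1319, 1640.0, 1624 and 1755 in livers 1 to 8. Ddost, a further subunit, read 392 in liver 2 and 720.5 in liver 4. Dad1, a small subunit, was lowest in that liver, with 2283 in liver 4, a median of 2631 and 3732 in liver 5 on its tested probe set. In this role 5 of 6 tested probe sets were highest in liver 4, against 17.2% of all tested probe sets. The 5 belonged to Rpn1, Rpn2 and Ddost, so some were probe sets of the same gene. Uggt1, the glucosyltransferase that checks folding, was below the signal needed for testing, at 102 in liver 3 and 186 in liver 1.

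The tested transcription factors of the unfolded protein response did not pass the test. Xbp1 read 1562 in liver 5, a median of 1876 and 2679 in liver 4, with a mean of 1941 ± 366 (SD, n = 8). Atf4 read 1246 in liver 1, a median of 1731 and 2114 in liver 3, with a mean of 1753 ± 321 (SD, n = 8). Liver 4 was the highest for Xbp1 but second lowest for Atf4. Atf6, one of the sensors, ranged least (1.36-fold), with 206, 243, 208, 245, 229.6, 196, 224 and 268 in livers 1 to 8. The arrays do not separate the spliced from the unspliced form of Xbp1. Ddit3 (CHOP), the pro-apoptotic factor downstream of ATF4, was too dim for testing, with 37.1 in liver 3, a median of 45.5 and 226 in liver 4. The other 7 livers read 37.1 to 62.3, so liver 4 was alone, at 4.81 times their mean. Without detection calls, a signal this low may be partly background, and the size of the ratio is uncertain.

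The degradation genes did not pass either. Herpud1, which helps to assemble the ubiquitin ligase complex of the ER membrane, read 2687 in liver 4, a median of 3861 and 5240.0 in liver 3, and liver 8 was next lowest at 2882. Livers 4 and 8, where the interferon and acute-phase genes were highest, thus lay below the other 6 (3409 to 5240.0). Whether the state of these 2 livers bears on Herpud1 was not tested. Edem1, a lectin that marks misfolded glycoproteins, read 269 in liver 1 and 391 in liver 4. Sel1l, the scaffold of the ligase, read 407 in liver 4 and 720.0 in liver 7 on one probe set and 226 in liver 5 and 419 in liver 4 on the other, so liver 4 was lowest on the first and highest on the second. Vcp (p97), the ATPase that pulls proteins out of the membrane, read 2941 in liver 8, a median of 3218 and 3569 in liver 4 on its bright probe set, a 1.21-fold range, and 3 dim Vcp probe sets were not tested. Derl1, a channel protein, ranged least, with 787, 783, 895, 868, 849, 869, 927 and 794 in livers 1 to 8 on one probe set (1.18-fold) and 709.7 in liver 7 and 915 in liver 5 on the other (1.29-fold).

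**Figure D3:**
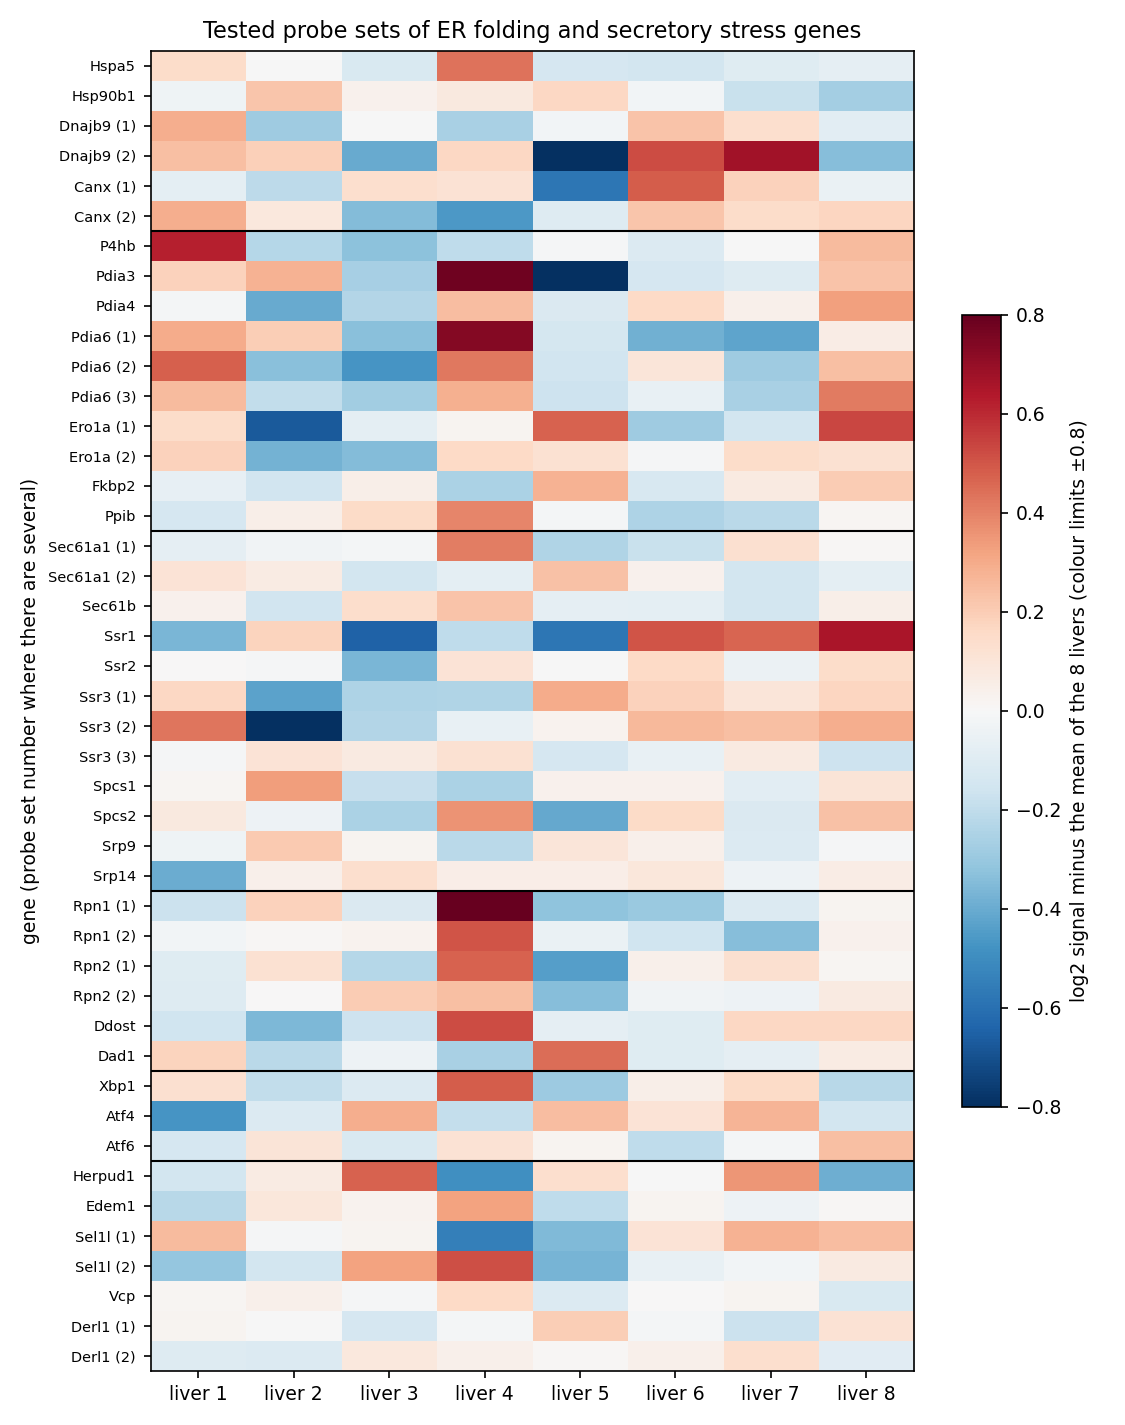
Log2 signal minus the mean of the 8 livers for the 44 tested member probe sets (rows, grouped from top to bottom as chaperones, isomerases, translocation, N-glycosylation, transcription factors and degradation) in the 8 livers (columns). Liver 4 is red, above the mean, in most of the N-glycosylation rows and blue for Dad1 and Herpud1, and Dnajb9, Pdia3 and Ssr3 have single livers at the dark blue limit.

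A wider list of 80 genes of ER folding, transport and stress, 58 of them on the array under 1 symbol, gave 61 tested probe sets for 53 genes. Of these, 8 (13.1%, against 11.3% of all) passed the typical-variance test, and 3 of the 8 were highest in liver 4. Fkbp11, an ER proline isomerase, had 49.3 in liver 5, a median of 194 and 506 in liver 4 (adjusted p = 1.8e-08). Its lowest value was below the signal of 162, so the 10.26-fold range is uncertain. Manf, a secreted ER stress protein, had 665 in liver 5, a median of 851 and 1736 in liver 4 (adjusted p = 0.00808). Atf3, a stress factor induced by ATF4, had 184 in liver 7, a median of 204 and 563 in liver 4 (adjusted p = 0.0446).
The other 5 were highest in livers other than liver 4. Ppp1r15b, a phosphatase subunit that reverses the translation block of PERK, was lowest in liver 4, with 770.0 in liver 4 and 1914 in liver 5. Srpr, the receptor for the signal recognition particle, read 316 in liver 2 and 805 in liver 8, with its lowest value in the same liver as Ssr3. Its brighter probe set did not pass and was highest in liver 4, with 2035 in liver 2 and 3616 in liver 4. Sar1b, the GTPase that starts vesicle budding from the ER, read 1042 in liver 5 and 2895 in liver 7, and its second probe set, which did not pass, read 1206 in liver 4 and 2345 in liver 5. Sec62, a translocon partner, read 281 in liver 4 and 597 in liver 2. Another tested Sec62 probe set did not pass and read 274 in liver 8 and 517 in liver 7. Ufd1, a cofactor of Vcp, read 130.3 in liver 3 and 499.7 in liver 8. Like that of Atf3, the passing probe sets of Sar1b and Sec62 have names that mark probes not unique to 1 sequence. Without such probe sets 5 of the wider list passed, and 528 of all tested probe sets. Without livers 4 and 8, 3 of the wider list passed, and without liver 4 alone 5 passed. Over all tested probe sets the count of 702 was then 503 and 592.

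More member probe sets were highest in liver 4 than in any other liver. It held the highest signal of 17 of 44 (38.6%), for 15 genes, against 17.2% of all 6211 tested probe sets, and the lowest signal of 7 (15.9%, against 22.6%). With only the brightest tested probe set of each member gene, it held the highest of 12 of 32 (37.5%) and the lowest of 7 (21.9%). The lowest signals were thus not fewer by gene than the 22.6% would give by more than a little. In the wider list it held the highest of 21 of 61 (34.4%), and the lowest of 13 (21.3%). For the 17, liver 4 was 1.10 to 1.88 times the mean of the other 7, with a median of 1.41, and 1 of the 17, Pdia3, had passed the variance test. The median deviation of the 44 from their own means was 0.12 on the log2 scale in liver 4, 0.06 in liver 8 and -0.11 in liver 3, against -0.04, -0.00 and -0.01 over all tested probe sets. Scaling the arrays to a common median, which shifts single arrays by -0.10 to 0.11, gave liver 4 a median of 0.04 for members and -0.12 for all tested probe sets. Under that scaling liver 4 held the highest signal of 13 members. The 17.2% of all tested probe sets is from the signals as deposited, so it cannot be set beside the 13. The summed interferon and acute-phase, macrophage, T and NK cell and stellate signals were also highest in liver 4. The 3′ to 5′ signal ratio of actin, a measure of RNA quality, was 1.24 in liver 4 and 1.41 to 1.74 in the others, and that of Gapdh was 0.874 in liver 4 and 0.806 to 0.969 over all 8 arrays. The part of these in the members' signals was not tested.

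**Figure D4:**
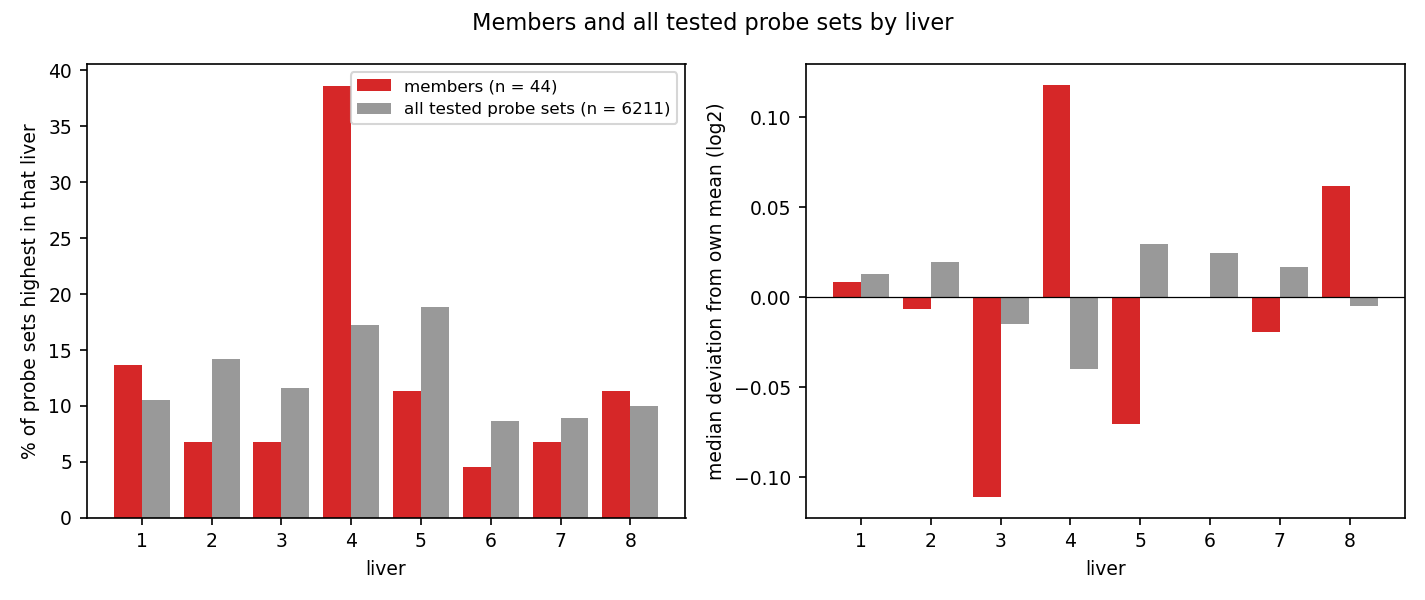
For each liver, the percentage of probe sets with their highest signal there (left) and the median deviation of log2 signals from each probe set's own mean (right), for the 44 members (red) and all 6211 tested probe sets (grey). Liver 4 has 38.6% of the members' highest signals and 17.2% of those of all probe sets.

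No member followed Hspa5 past the threshold. Pearson's r with Hspa5 was computed for 6210 other tested probe sets, with exact permutation over all pairings of the 8 livers and adjustment over all of them. After adjustment 0 of 43 members and 0 of 6210 probe sets passed by r, and likewise 0 and 0 by Spearman's rho. The smallest possible p was 2.48e-05, so a single probe set could not pass alone after adjustment over 6210, however close its match. The 0 therefore does not show that no member followed Hspa5. Before adjustment, 7 of 43 members (16.3%) and 9.48% of all probe sets had an exact permutation p under 0.05 by r (4.14% of all with r above 0), and 4 members and 358 probe sets did by rho. The median r was 0.27 for members and -0.07 for all.
The 7 were probe sets of Pdia3, Pdia6, Sec61a1, Rpn1 (both), Xbp1 and Vcp, all positive. One of the 3 probe sets of Pdia6, whose promoter also has an ERSE, was the closest by r, with r = 0.92 (exact permutation p = 0.00062, adjusted p = 0.506), rho = 0.83 (exact permutation p = 0.0154, adjusted p = 0.654) and r = 0.81 without livers 1 and 4. Pdia3 was the closest by rho, with rho = 0.86 (exact permutation p = 0.0107, adjusted p = 0.634), r = 0.76 and r = 0.69 without livers 1 and 4. The Rpn1 probe sets had r = 0.85 and 0.82, and r = 0.95 and 0.30 without livers 1 and 4. The second Pdia6 probe set had r = 0.66 (exact permutation p = 0.0575, adjusted p = 0.506), rho = 0.48 (exact permutation p = 0.243, adjusted p = 0.831) and r = -0.15 without livers 1 and 4. The third had r = 0.58 (exact permutation p = 0.108, adjusted p = 0.531), rho = 0.43 (exact permutation p = 0.299, adjusted p = 0.85) and r = 0.14 without livers 1 and 4. Neither of these passed before adjustment. The second Sec61a1 probe set had r = -0.08 (exact permutation p = 0.84, adjusted p = 0.95), rho = 0.05 (exact permutation p = 0.935, adjusted p = 0.992) and r = -0.06 without livers 1 and 4. Xbp1 had r = 0.77 (exact permutation p = 0.0336, adjusted p = 0.506), rho = 0.45 (exact permutation p = 0.267, adjusted p = 0.835) and r = -0.28 without livers 1 and 4. Without liver 4, r was 0.84 for the closest Pdia6 probe set and was 0.57 for Pdia3, and it was 0.16 to 0.37 for the others of the 7. Centred within arrays 1 to 4 and 5 to 8, r was 0.87 for the closest Pdia6 probe set and 0.76 for Xbp1. Of the other genes with an ERSE, Hsp90b1 and Canx had tested probe sets, and neither gene passed even before adjustment. Their r was 0.18 for Hsp90b1 and 0.03 and -0.41 for the probe sets of Canx. Calr was too dim for testing and Syvn1 had no probe set, so neither had an r. Herpud1 had r = -0.68 (exact permutation p = 0.0588, adjusted p = 0.506), rho = -0.60 (exact permutation p = 0.132, adjusted p = 0.805) and r = -0.28 without livers 1 and 4. Atf4 had r = -0.66 (exact permutation p = 0.0621, adjusted p = 0.508), rho = -0.74 (exact permutation p = 0.0458, adjusted p = 0.788) and r = -0.71 without livers 1 and 4, and r = -0.89 without liver 4. Of the non-members, the 10 with the highest r were Tubb6, Laptm4a, Col4a1, Psmc5, Vmp1, Tubb3, Slc39a7, Arhgef1, Hnrnpl and Clic4 (r between 0.90 and 0.97, adjusted p = 0.506 for each by exact permutation), and all 10 were highest in liver 4.

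Probe sets of the same gene ran together for some members and not for others. The 10 genes with several tested probe sets gave 14 pairs, with a median r of 0.46 and 9 pairs above 0, against a median of 0.24 and 67.9% above 0 over 886 pairs in all genes. By exact permutation, adjusted over the 886, 0 of the 14 passed and 2.82% of all did. Before adjustment 4 of the 14 and 137 of the 886 had a p under 0.05.
The highest agreement was between 2 Pdia6 probe sets (r = 0.91, exact permutation p = 0.00347, adjusted p = 0.081, rho = 0.88 with exact permutation p = 0.00724 and adjusted p = 0.157, r = 0.87 once the 2 livers farthest from the median were removed). The Rpn1 pair had r = 0.84 (exact permutation p = 0.0305, adjusted p = 0.25, rho = 0.64 with exact permutation p = 0.0962 and adjusted p = 0.463), which was 0.19 without the 2 farthest livers and so rests on them. For Ssr3 the pair that was lowest in liver 2 had r = 0.83 (exact permutation p = 0.00727, adjusted p = 0.115, rho = 0.67 with exact permutation p = 0.0831 and adjusted p = 0.449, r = 0.49 without the 2 farthest livers). The remaining Ssr3 probe set ran against one of them (r = -0.82, exact permutation p = 0.019, adjusted p = 0.207, rho = -0.86 with exact permutation p = 0.0107 and adjusted p = 0.19, r = -0.80 without the 2 farthest livers). The Sec61a1 pair was also inverse (r = -0.64, exact permutation p = 0.0801, adjusted p = 0.394, rho = -0.71 with exact permutation p = 0.0576 and adjusted p = 0.392, r = -0.67 without the 2 farthest livers). The Pdia6 pair, the Rpn1 pair and the Ssr3 pair with r = 0.83 each include a probe set whose name marks probes not unique to 1 sequence. The calls of Ssr3, Dnajb9 and Ero1a above thus each come from 1 of several probe sets.

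**Figure D5:**
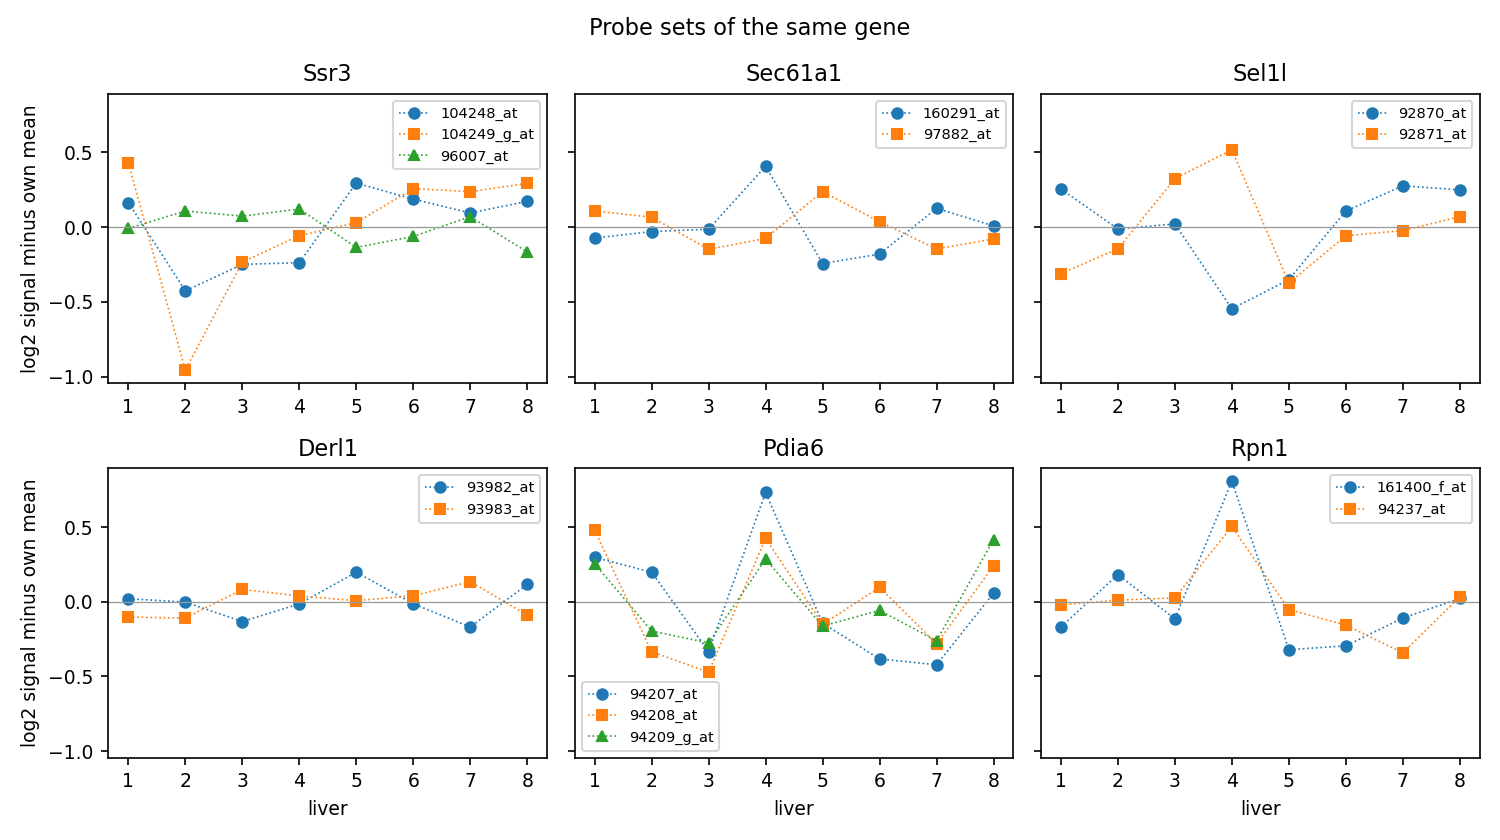
Log2 signal minus the probe set's own mean in each of the 8 livers for tested probe sets of Ssr3, Sec61a1, Sel1l, Derl1, Pdia6 and Rpn1, with dotted lines that only join the points of a probe set. The Pdia6 and Rpn1 probe sets are each high together in liver 4, whereas those of Sel1l part there and those of Ssr3 part in liver 2.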

How the data were processed

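The authors hybridised liver RNA to Affymetrix mouse U74Av2 arrays read on a Hewlett-Packard GeneArray scanner, per the labels. The deposited values are 1-colour intensity signals per probe set on a linear scale, with software and scaling not given in the sources used here, and no detection calls were used. Means after trimming 2% from either end differed by 0.16% between arrays, within the tolerance of 10%, so the signals were used as deposited. Signals under the 10th percentile (11.2) were set to it before log2 transformation. The 66 control probe sets were left out, and symbols came from the platform annotation, where 10833 probe sets carried 1, 396 several and 1193 none.

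The typical variance was a loess curve (span 0.3) of log variance against mean log2 signal. Variances were tested one-sided by chi-square (7 degrees of freedom) and, as an alternative, with limma 3.58.1 in R 4.3.3, with Benjamini-Hochberg adjustment over all tested probe sets and a threshold of 0.05. On simulated data for 6211 probe sets, with SDs of 200 raised 3-fold, the typical-variance test recovered 181 and called 3 of 6011 others. Where the others varied unequally it recovered 167 and called 420 others, so a call means more variable than most genes of like signal. limma recovered 176 in the first case and 0 in the second. The correlation test recovered 125 of 200 planted probe sets and called 12 of 6010 others. The 200 were planted together, so this does not show that a single match could pass. Correlations with Hspa5 were tested two-sided, with a smallest possible p of 2.48e-05. Each title marks a sample of its own, and p-values measure the spread between these 8 samples. Alternatives covered scaling, floor, filter, shared-sequence probe sets, left-out arrays, loess span and rank correlation.

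All 8 samples formed 1 group. Members and lists were chosen with earlier results of these data known. Every member was named, with the values of all livers for those past the typical-variance test, Hspa5 and the probe set with the smallest ratio of highest to lowest signal in each role. Pathway genes were named where past that test, and of the genes most like Hspa5 the 10 non-members with the highest r were named. The number of arrays limits the precision.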

Additional observations from a re-analysis of the deposited data

Results flagged for a closer look

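A liver was counted as far from the other 7 where its gap to the nearest one took more of the whole log2 range than chance gives in 5% of such groups. This held for 4 of the 44 tested member probe sets (9.09%, against 7.0% of all 6211 tested probe sets). It also held for 2 of the 7 untested member probe sets that were above the floor in all 8 livers. The share over all untested probe sets was not computed, and the 7.0% covers tested ones only, so these 2 have no background. Among the tested members, liver 4 was high for both probe sets of Rpn1 (gaps of 0.554 and 0.557 of the range), liver 1 was low for Srp14 (0.671) and liver 3 was low for Ssr2 (0.611). Among the untested ones, liver 4 was high for Ddit3 (0.713), and liver 5 was high for the dimmer probe set of P4hb (0.538).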

How the results depend on the processing

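No paired analysis was possible because the 8 samples form 1 group. Of 44 member probe sets, 5 passed the typical-variance test in most settings, 3 without probe sets of shared sequence, 0 with limma and 3 to 5 with 1 array left out (3 without liver 2). Over all tested probe sets the count of 702 became 528 without probe sets of shared sequence and 0 with limma. It was 592 to 692 with 1 array left out (614 without liver 2). With median scaling it was 604, with a stricter filter 542 and without livers 4 and 8 it was 503. In the wider pathway list the count of 8 was 5 with median scaling, with a stricter filter and without probe sets of shared sequence, 3 without livers 4 and 8, 0 with limma and 5 to 7 with 1 array left out (5 without liver 4). The median deviation in liver 4 was 0.0402 for members and -0.12 for all tested probe sets with median scaling, where it had been 0.12 and -0.04, because that scaling moves whole arrays. Where the setting leaves fewer samples or probe sets, that is a change of construction, and other causes were not tested. Of 827 comparisons of single member probe sets with their first value, 811 kept their side of the threshold, 14 lost a call and 2 (Pdia6 without liver 5) gained one. Correlations with Hspa5 and between probe sets of a member gene gave 0 calls in every setting run. With arrays centred within 1 to 4 and 5 to 8 their smallest possible p was 0.00174, so that setting could hardly pass. With arrays left out, fewer pairings exist and the smallest possible p is larger than the 2.48e-05 of 8 arrays. The 0 calls with Hspa5 in those settings therefore say little about stability. The number of arrays and the lack of detection calls limit what low signals can show.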
